A study of Mus musculus with 35 samples.

Results

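The 37 genes described here encode the intraflagellar transport (IFT) machinery and the BBSome of the cilium. They were taken by name from a list made for this work: 6 subunits of IFT-A, 16 of IFT-B, 2 of the dynein-2 motor, 8 of the BBSome, 3 chaperonin-like proteins that help to assemble it and 2 factors that recruit or regulate it. All 37 were found among the 30723 gene symbols of the tables, Ift43 under its older symbol 1700019E19Rik and Ift22 as Rabl5. All 37 also passed the low filter that left 13934 genes for testing, and the list rests on names, not on measured values.

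RNA was sequenced from wild-type CD1 mouse embryos at embryonic day 11.5, with no transgene, deletion or treatment. The neural tissues were dorsal brain (dB, 6 libraries) and ventral brain (vB, 6 libraries), which the sample labels call dorsal and ventral neural tube. The facial tissues were the frontonasal (FNP, 6 libraries), mandibular (MNP, 6 libraries) and maxillary prominences (MXP, 5 libraries), the outgrowths that form the face, and limb had 6 libraries. Each library was made from tissue pooled over several embryos, so it is a mixture of cell types, and p-values measure the spread between such pools. The study asked how far the expression of ciliary genes differs between these tissues. In bulk RNA, fewer cells of a type and less RNA per cell cannot be told apart.

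A cilium is built and maintained by trains of IFT proteins that run along its microtubules. IFT-B trains are carried to the tip by kinesin-2, and IFT-A with dynein-2 carries material back to the base. IFT-A also brings membrane proteins into the cilium, and the BBSome, named after Bardet-Biedl syndrome, rides on the trains and takes membrane receptors out again. Mutations in IFT and dynein-2 genes cause skeletal ciliopathies, and those in BBSome genes cause Bardet-Biedl syndrome. RFX transcription factors bind a paired motif, the X-box, in promoters of many ciliary genes.

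Sequence around the start sites was searched first, because an X-box is what many of these genes are known to share. RefSeq promoters (GRCm38.p6, 250 bases before to 50 after the start) were given for 32 of the 37 genes. The pair searched was GTTNCC followed after 0 to 3 bases by its reverse complement GGNAAC, which reads the same on both strands. Of the 32 genes, 17 (53.1%) held the pair with at most 2 of its 10 fixed letters differing, as did 37.7% of the 27025 genes in the promoter table. With at most 1 letter differing it was in 8 of 32 (25.0%), against 6.15% of all genes. With no letter differing it was in 4 of 32 (12.5%), namely Bbs7, Ift57, Lztfl1 and Ttc26, against 0.936% of all genes. The single arm GTTGCC, which can lie within the pair, was in 13 of 32 (40.6%) on either strand, against 14.1% of all genes. The CCAAT box was in 20 of 32 (62.5%), against 41.1%. The promoters of the 32 genes had a median GC content of 58.3%, against 52.7% over the table. A match describes letters and is not evidence that a factor is bound.

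Windows from 4 of these promoters are shown, 3 with the full pair and that of Rabl5, the gene that differed most between tissues, whose pair has 1 letter changed. Capitals mark the pair, and each window reads 5′ to 3′ on the strand of the gene. They lie at chr3:36613482-36613525 (minus strand) for Bbs7, chr16:49699219-49699261 (plus) for Ift57, chr9:123717760-123717804 (minus) for Lztfl1 and chr5:136908072-136908115 (plus) for Rabl5.
Bbs7: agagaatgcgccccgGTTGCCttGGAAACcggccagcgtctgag
Ift57: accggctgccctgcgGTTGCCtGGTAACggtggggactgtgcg
Lztfl1: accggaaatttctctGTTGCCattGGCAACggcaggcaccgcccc
Rabl5: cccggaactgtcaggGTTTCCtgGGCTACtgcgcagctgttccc
A pair with at most 1 letter differing was found in 3 of 8 IFT-B1, 1 of 5 IFT-B2 and 3 of 8 BBSome promoters, and in 0 of 5 IFT-A promoters.

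The values are FPKM, fragment numbers scaled to transcript length and library size, summed over the transcripts of a gene. Each library held 11742 to 12955 genes at 1 FPKM or more. The 6 libraries numbered 1 all came from the same sequencing run. They had 19.1 to 39.2% of their FPKM in transcripts under 200 bases, against 0.653 to 10.3% in the others. The library vB replicate 4 stood apart: the median of the tested genes was 6.40 FPKM there, against 7.71 to 10.2 FPKM in the other libraries. The labels fitted the neuron markers, since the mean log2(FPKM + 1) of 7 of them was 5.45 to 7.18 in neural libraries, 1.17 to 3.81 in facial and 1.54 to 2.42 in limb libraries. That of 8 mesenchyme markers was 0.93 to 5.09 in neural, 5.88 to 6.90 in facial and 5.38 to 6.34 in limb libraries, with the lowest value in vB replicate 6. It was 4.03 to 4.97 in the dB libraries. In vB it was 4.33, 3.97 and 5.09 in replicates 1, 4 and 5 and 0.93 to 2.66 in the other libraries. That of 6 neural progenitor markers was 5.36 to 6.72 in neural, 1.28 to 4.54 in facial and 0.59 to 1.97 in limb libraries. In FNP replicates 4 and 5 it was 4.54 and 4.20, against 1.96 to 2.47 in the other FNP libraries. One alternative fit leaves out vB replicates 1, 4 and 5 and FNP replicates 4 and 5, and keeps all dB libraries. These markers move with every neural contrast below, and their part in the results was not tested.

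All 37 genes were at or above 1 FPKM in every library. The highest mean over the 6 tissues belonged to Ift20 (35.1 FPKM), which also acts at the Golgi, followed by Ift27 (26.4 FPKM), a small GTPase of IFT-B, and Ift74 (25.4 FPKM), which helps to bind tubulin. The lowest were Ttc30b (1.71 FPKM), Bbs10 (3.40 FPKM) and Wdr19 (4.04 FPKM). Ttc30b values are uncertain, because the nearly identical Ttc30a1 can share its reads. Wdr19, an IFT-A subunit, had a lowest, median and highest FPKM of 3.04, 4.19 and 5.13 in neural, 3.15, 4.13 and 5.47 in facial and 2.99, 3.50 and 4.54 in limb libraries, so all groups overlapped. Bbs10, a chaperonin-like gene, gave 2.79, 3.40 and 4.20 FPKM in neural, 2.40, 3.37 and 4.10 in facial and 2.84, 3.63 and 4.18 in limb libraries, and did not separate the tissues either. The median level of the 37 genes was 8.33 FPKM, against 9.73 FPKM over all tested genes.

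The levels differed little between tissues. The ratio of the highest to the lowest tissue mean ran from 1.05 to 2.06 with a median of 1.32, against 1.45 over all tested genes. It was under 1.5 for 28 of the 37 genes, as for 53.1% of all tested genes. The highest tissue mean lay in vB for 15 genes, in limb for 9, in FNP for 7, in MXP for 3, in dB for 2 and in MNP for 1. Tissue accounted for a median of 34.8% of the variance of log2(FPKM + 1), against 35.8% over all tested genes. At one end stood Rabl5 (74.9%), Bbip1 (74.1%) and Ttc8 (68.6%), and at the other Ift52 (3.3%), Traf3ip1 (4.8%) and Mkks (5.3%). Ift52, a core subunit of IFT-B, had a lowest, median and highest FPKM of 17.0, 18.3 and 26.3 in neural, 18.3, 20.3 and 22.7 in facial and 17.1, 19.4 and 23.0 in limb libraries. Traf3ip1, the IFT-B subunit IFT54, gave 3.59, 5.83 and 6.39 FPKM in neural, 4.44, 5.75 and 6.58 in facial and 4.90, 5.75 and 6.58 in limb libraries. Mkks, the chaperonin-like BBS6, gave 8.19, 10.9 and 20.3 FPKM in neural, 8.88, 11.2 and 13.0 in facial and 9.20, 11.0 and 14.3 in limb libraries. For these 3 genes the tissue groups lay on top of each other, and the highest Mkks value was that of vB replicate 4. Of the exonic bases of Mkks, 29.3% are shared with another annotated gene, and of Cluap1 40.8%, so their reads may be split.

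**Figure D1:**
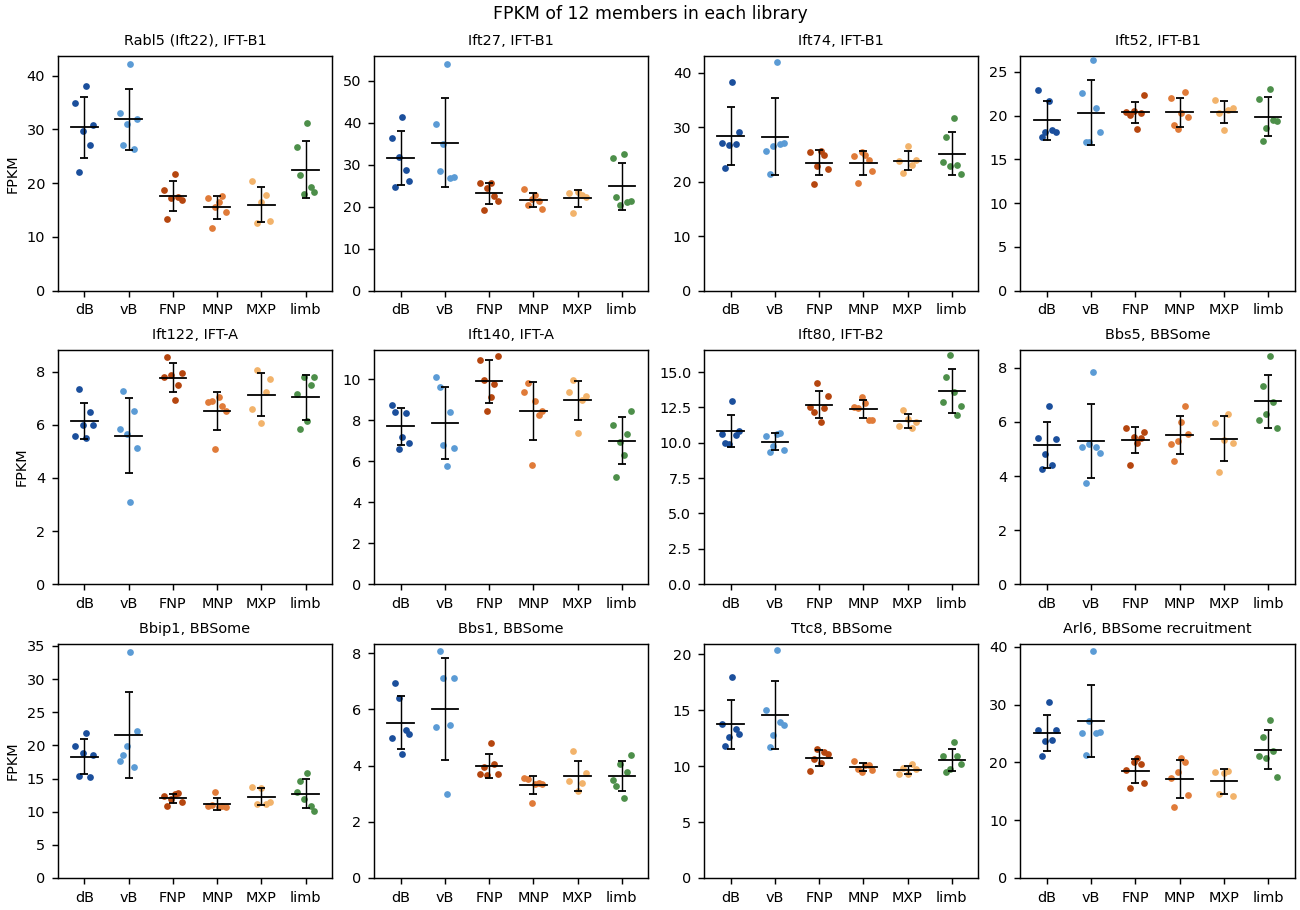
FPKM of 12 of the 37 genes (vertical axes, from 0) in each library of dB, vB, FNP, MNP, MXP and limb. Points are libraries, horizontal lines tissue means and bars 1 SD. For Rabl5, Bbip1, Ttc8 and Arl6 every dB and vB library lies above every FNP, MNP and MXP library, while the 6 tissues overlap for Ift52.

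Neural against facial tissue was the contrast with the most differences. Of the 37 genes, 15 were higher and 5 lower in neural tissue at an adjusted p under 0.05 (limma, Benjamini-Hochberg over all tested genes), against a background of 26.8% of all tested genes higher, 26.8% lower and 53.6% called. The 20 calls are 54.1% of the 37, close to that background. The direction was uneven between the complexes: the BBSome had 6 of 8 subunits higher and 0 lower, IFT-B1 5 of 10 higher and 0 lower, IFT-B2 1 of 6 higher and 2 lower, IFT-A 2 of 6 higher and 2 lower, and dynein-2 0 of 2 in either direction. Median log2 fold changes were 0.35 for the BBSome, 0.14 for IFT-B1, -0.15 for IFT-B2 and -0.00 for IFT-A, against -0.02 over all tested genes. Every change was small, and none of the 37 genes reached a fold of 2, while 11.3% of all tested genes did. The count was also 15 higher and 5 lower without vB replicate 4, and 13 higher and 5 lower without the 6 libraries numbered 1. Those fits called 56.2% and 49.8% of all tested genes.

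IFT-B splits into a core, IFT-B1, and a peripheral part, IFT-B2. Rabl5, the core GTPase IFT22 (chr5:136908150-136915404, plus strand, GRCm38), had a lowest, median and highest FPKM of 22.0, 30.9 and 42.1 in neural, 11.7, 16.9 and 21.7 in facial and 18.1, 20.4 and 31.3 in limb libraries. The neural and facial libraries did not overlap, and limb lay between them. Its log2 fold change was 0.89 ± 0.09 for neural minus facial (SE, adjusted p = 8.88e-10 in limma), with 0.86 in replicates 1 to 3 and 0.92 in replicates 4 to 6, which were sequenced in other runs. Ift27, the GTPase that links the trains to the BBSome, gave 24.7, 30.3 and 54.1 FPKM in neural, 18.5, 22.5 and 25.7 in facial and 20.4, 21.8 and 32.5 in limb libraries. Its neural range overlapped the facial one by 1 library, and the log2 fold change was 0.53 ± 0.09 (adjusted p = 1.02e-05). Ift74 gave 21.4, 26.9 and 41.9 FPKM in neural, 19.6, 23.9 and 26.5 in facial and 21.5, 23.2 and 31.7 in limb libraries, and was higher by 0.24 ± 0.08 (adjusted p = 0.0107). This call was lost in replicates 1 to 3 alone (0.09) and when libraries were scaled to the same median.

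Ift81, the partner of Ift74 in binding tubulin, was higher by 0.25 (adjusted p = 0.00358) and Ttc30b by 0.26 (adjusted p = 0.00759) on the log2 scale. Ttc30b gave 1.35, 1.82 and 4.00 FPKM (lowest, median, highest) in neural, 1.08, 1.45 and 2.19 in facial and 1.31, 1.88 and 2.42 in limb libraries. The other core subunits Ift46, Ift52, Ift88, Hspb11 and Ttc26 did not pass, with log2 fold changes between -0.11 and 0.05.

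In IFT-B2 the calls ran both ways. Ift80, a subunit whose loss in humans causes a skeletal ciliopathy, had a lowest, median and highest FPKM of 9.34, 10.5 and 13.0 in neural, 11.0, 12.3 and 14.2 in facial and 12.0, 13.2 and 16.2 in limb libraries. Of the 12 neural libraries, 11 lay below the lowest facial one, and the gene was lower by -0.21 ± 0.04 against facial (adjusted p = 0.000194). Ift172, a large peripheral subunit, gave 6.22, 7.54 and 8.52 FPKM in neural, 6.72, 8.92 and 11.0 in facial and 7.17, 8.13 and 10.8 in limb libraries, and was lower by -0.21 ± 0.06 against facial (adjusted p = 0.00744). Both groups of replicates gave a similar size for Ift172 (-0.20 and -0.23), though neither passed alone. Ift57, a peripheral subunit also known as HIPPI, was higher by 0.12 (adjusted p = 0.0442), a call lost under 8 of 17 alternatives. Ift20 (-0.16), Cluap1 (-0.14) and Traf3ip1 (-0.01) did not pass.

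Within IFT-A the subunits moved apart. Ift122, a core subunit needed for receptors to enter the cilium, had a lowest, median and highest FPKM of 3.11, 5.92 and 7.35 in neural, 5.09, 7.06 and 8.55 in facial and 5.84, 7.32 and 7.80 in limb libraries. Its groups overlapped widely, with a log2 fold change of -0.26 ± 0.07 for neural minus facial (adjusted p = 0.00358). It passed in replicates 4 to 6 alone (-0.38) and not in replicates 1 to 3 (-0.15). Ift140, another core subunit, gave 5.76, 7.76 and 10.1 FPKM in neural, 5.80, 9.18 and 11.1 in facial and 5.22, 7.15 and 8.43 in limb libraries. It was lower by -0.20 against facial tissue (adjusted p = 0.027), a call that was lost without vB replicate 4 and in replicates 1 to 3 alone. Ift43 was higher by 0.32 (adjusted p = 0.000538) and Wdr35, known as IFT121, by 0.11 (adjusted p = 0.0409), and 9 of 17 alternatives lost the call of Wdr35. Wdr19 and Ttc21b gave 0.00 and -0.01 with intervals of -0.14 to 0.14 and -0.13 to 0.11.

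The BBSome had the highest share of calls. Bbip1, its smallest subunit (chr19:53929861-53944627, minus strand), had a lowest, median and highest FPKM of 15.2, 18.7 and 34.2 in neural, 10.7, 11.4 and 13.7 in facial and 10.1, 12.4 and 15.8 in limb libraries. Every neural library was above every facial one, with a log2 fold change of 0.68 ± 0.08 (adjusted p = 5.52e-09). Ttc8, the subunit BBS8 (chr12:98920574-98983238, plus strand), gave 11.7, 13.5 and 20.4 FPKM in neural, 9.26, 10.1 and 11.6 in facial and 9.51, 10.5 and 12.1 in limb libraries. Neural and facial libraries again did not overlap, at 0.43 ± 0.06 (adjusted p = 1.76e-07).

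Bbs1, whose propeller domain contacts ARL6, gave 2.98, 5.40 and 8.08 FPKM (lowest, median, highest) in neural, 2.67, 3.56 and 4.80 in facial and 2.84, 3.63 and 4.36 in limb libraries. Its log2 fold change for neural minus facial was 0.52 ± 0.09 (adjusted p = 4.91e-06), 0.70 in replicates 1 to 3 and 0.34 in replicates 4 to 6, where the adjusted p was 0.0797. Bbs2, a part of the core on which the BBSome is assembled, gave 4.78, 6.77 and 9.46 FPKM in neural, 3.15, 4.51 and 6.48 in facial and 3.14, 4.29 and 5.24 in limb libraries, and was higher by 0.43 (adjusted p = 3.11e-05). Bbs4 (0.27, adjusted p = 0.000346) and Bbs9 (0.19, adjusted p = 0.00773) were higher as well. Bbs7 (0.14, interval -0.00 to 0.29) and Bbs5 (-0.06, interval -0.21 to 0.10) did not pass.

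As a description, the mean log2(FPKM + 1) of the 8 BBSome genes was 3.18 ± 0.12 in neural (SD, n = 12), 2.85 ± 0.09 in facial (n = 17) and 2.92 ± 0.07 in limb libraries (n = 6). That of the 6 IFT-A genes was 3.16 in neural, 3.17 in facial and 3.18 in limb libraries. Within a library, the BBSome mean minus the IFT-A mean was 0.01 ± 0.17 in neural, -0.32 ± 0.12 in facial and -0.26 ± 0.11 in limb libraries. This difference ran from -0.25 to 0.30 in neural and from -0.59 to -0.20 in facial libraries, so the ranges overlapped at their ends.

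The assembly and recruitment factors differed among themselves. Arl6, the small GTPase that brings the BBSome to membranes (chr16:59612949-59639391, minus strand), had a lowest, median and highest FPKM of 21.1, 25.2 and 39.2 in neural, 12.3, 18.3 and 20.8 in facial and 17.5, 21.5 and 27.3 in limb libraries. Neural and facial libraries did not overlap, with 0.55 ± 0.08 (adjusted p = 8.46e-07). Lztfl1, which holds the BBSome back from the cilium, did not pass (0.13, interval -0.03 to 0.29). Of the chaperonin-like genes, Bbs12 was lower by -0.21 (adjusted p = 0.000915), while Mkks (0.04) and Bbs10 (0.03) did not pass. The dynein-2 heavy chain Dync2h1 gave 0.20 (interval -0.01 to 0.41) and the light intermediate chain Dync2li1 -0.01 (interval -0.16 to 0.14).

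The order of the tissue means was alike for the genes that differed most. Rabl5 averaged 30.4 ± 5.7 FPKM in dB, 31.9 ± 5.7 in vB, 17.6 ± 2.7 in FNP, 15.5 ± 2.2 in MNP, 16.0 ± 3.3 in MXP (n = 5) and 22.5 ± 5.4 in limb (SD, n = 6 in the others). Bbip1 averaged 18.3 ± 2.6 FPKM in dB, 21.5 ± 6.5 in vB, 12.0 ± 0.7 in FNP, 11.2 ± 0.8 in MNP, 12.2 ± 1.3 in MXP and 12.7 ± 2.2 in limb. The means of Arl6 were 25.1 ± 3.1 FPKM in dB, 27.2 ± 6.2 in vB, 18.5 ± 2.1 in FNP, 17.2 ± 3.3 in MNP, 16.8 ± 2.2 in MXP and 22.2 ± 3.3 in limb. In these genes dB and vB stood at the top and the prominences at the bottom, with limb between them, close to the prominences for Bbip1. Neither dB and vB nor any pair of prominences differed beyond their spread.

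Of the 17 genes without a call in neural minus facial, 4 show the overlap of the groups. Hspb11 (IFT25) had a lowest, median and highest FPKM of 12.5, 14.6 and 32.0 in neural, 12.2, 15.4 and 20.0 in facial and 15.9, 19.8 and 22.3 in limb libraries, the top value being that of vB replicate 4. Ift88, whose mutation is the classic mouse model of lost cilia, gave 6.95, 7.71 and 10.3 FPKM in neural, 7.28, 8.46 and 9.60 in facial and 6.71, 7.89 and 9.55 in limb libraries. Dync2h1 gave 3.77, 5.72 and 7.46 FPKM in neural, 2.73, 4.98 and 7.27 in facial and 3.38, 4.47 and 6.17 in limb libraries. Cluap1 (IFT38) gave 8.97, 11.3 and 14.5 FPKM in neural, 8.83, 12.9 and 15.3 in facial and 7.91, 10.4 and 12.7 in limb libraries. In all 4 the neural, facial and limb ranges overlapped. Over the pairs of tissues Hspb11 passed once, lower in dB than in limb (-0.39, adjusted p = 0.0253), and the other 3 passed in 0 pairs in limma.

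For 4 genes (Rabl5, Bbip1, Ttc8 and Arl6) all neural libraries lay above all facial ones, which held for 5.55% of all tested genes, and for 0 all lay below, against 4.31%. Under all 17 alternatives 6 of the 20 calls were kept: Rabl5, Ift27, Bbs2, Ttc8, Bbip1 and Arl6, all higher in neural tissue. Each of the 5 lower calls was lost in replicates 1 to 3 alone or in replicates 4 to 6 alone.

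Genes with short coding sequences made up much of the upper end. Of the 7 with a coding length under 700 bases (Bbip1, Ift20, Hspb11, Rabl5, Ift27, Arl6 and Ift43), 5 were higher and 0 lower, with a median log2 fold change of 0.53. Of the other 30, 10 were higher and 5 lower, with a median of 0.02. The cut falls in a gap, since no coding length of the 37 genes lies between 618 and 897 bases. Over the 37 genes the neural minus facial log2 fold change had Pearson's r = -0.43 with the log2 of the coding length (Spearman's rho = -0.35). With the log2 of the transcript length r was -0.19 (rho = -0.21). Over 11731 tested genes with a coding length, r with the log2 of that length was -0.07 (rho = -0.15). Among those, 32.7% of the 1996 short genes were higher and 18.5% lower, against 26.1% and 29.9% of the 9735 longer ones. Whether length bears on these values was not tested.

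**Figure D2:**
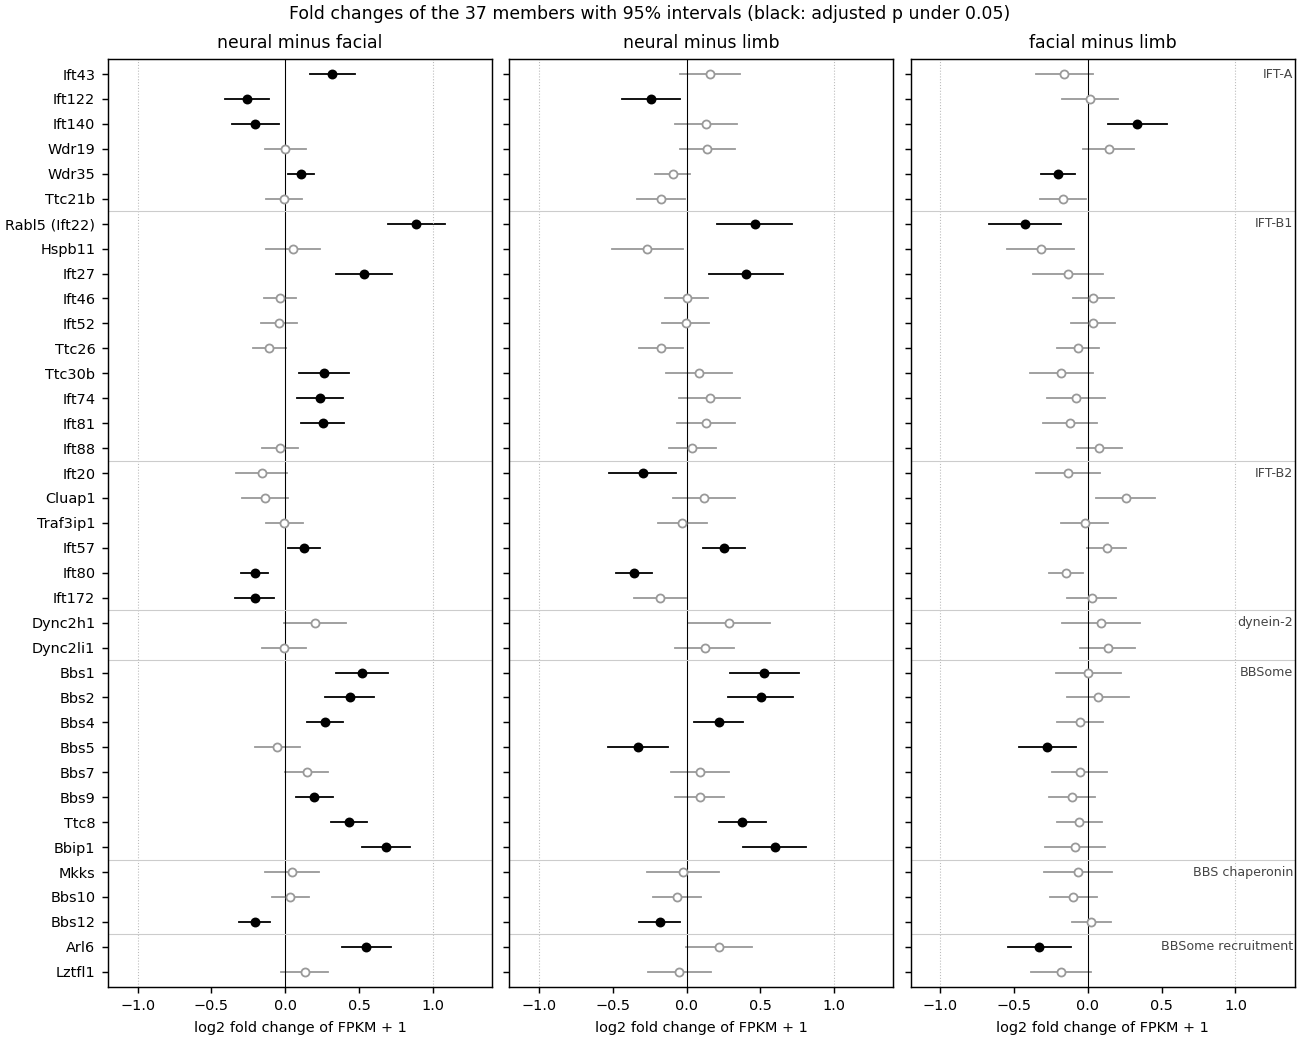
Log2 fold changes of FPKM + 1 (horizontal axes) for the 37 genes in 3 contrasts, with 95% intervals. Black points passed an adjusted p under 0.05, open points did not, dotted lines mark a fold of 2 and grey lines part the 7 lists. The BBSome block lies mostly to the right in both neural contrasts, and no point lies beyond a dotted line.

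Neural against limb tissue shares the neural libraries with the contrast above. Of the 37 genes, 8 were higher and 5 lower in neural tissue, against 24.3% higher, 20.6% lower and 44.9% called over all tested genes. The 13 calls are 35.1% of the 37. With the sequencing run as a term 13 were higher and 8 lower, 56.8% of the 37, against 53.9% called over all tested genes, so the count lay below the background without that term and near it with it. The BBSome had 5 of 8 higher and 1 lower, IFT-B1 2 of 10 higher, IFT-B2 1 of 6 higher and 2 lower, IFT-A 0 higher and 1 lower. The median log2 fold change was 0.09, against -0.01 over all tested genes. With quantile normalization 6 were higher and 8 lower, and over all tested genes the share of higher among called was then 43.9%, against 54.0% without it.

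The largest rises belonged to Bbip1 (0.60 ± 0.10, adjusted p = 1.5e-05), Bbs1 (0.53 ± 0.12, adjusted p = 0.000297) and Bbs2 (0.50 ± 0.11, adjusted p = 0.00025). The largest falls belonged to Ift80 (-0.35 ± 0.06, adjusted p = 7.56e-06), Bbs5 (-0.33 ± 0.10, adjusted p = 0.00673) and Ift20 (-0.30 ± 0.11, adjusted p = 0.0291). Bbs5, a BBSome subunit that binds phosphoinositides, had a lowest, median and highest FPKM of 3.74, 5.07 and 7.86 in neural, 4.14, 5.40 and 6.59 in facial and 5.76, 6.51 and 8.43 in limb libraries, so limb lay highest and overlapped both other groups. Ift20 gave 23.9, 31.0 and 47.9 FPKM in neural, 31.4, 35.3 and 43.4 in facial and 33.5, 36.5 and 57.5 in limb libraries, with the top values in replicate 4 of limb and of vB.

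Also higher were Rabl5 (0.46), Ift27 (0.40), Ttc8 (0.38), Ift57 (0.25) and Bbs4 (0.22), and Ift122 (-0.24) and Bbs12 (-0.18) were lower. In no gene were neural and limb libraries apart in either direction, against 9.43% of all tested genes with neural higher and 6.03% with neural lower. Bbip1, Bbs2 and Ttc8 kept their call under all 17 alternatives. In replicates 4 to 6 alone they were the only 3 calls, and replicates 1 to 3 alone also called them. Hspb11, an IFT-B1 subunit, did not pass with all libraries (-0.27, adjusted p = 0.0668) but passed without vB replicate 4 (-0.35, adjusted p = 0.000944).

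Between facial tissue and limb 1 gene was higher and 4 were lower in facial tissue, against 8.55% higher, 5.08% lower and 13.6% called over all tested genes. The 5 calls are 13.5% of the 37. With the sequencing run as a term 3 were higher and 5 lower, 21.6% of the 37, against 16.5% called over all tested genes. With quantile normalization 1 was higher and 3 lower, and 51.9% of all called genes were higher, against 62.7% without it. Ift140 was higher (0.34 ± 0.10, adjusted p = 0.0174). Rabl5 (-0.43 ± 0.12, adjusted p = 0.0123), Arl6 (-0.33 ± 0.10, adjusted p = 0.03), Bbs5 (-0.28 ± 0.09, adjusted p = 0.0482) and Wdr35 (-0.20 ± 0.06, adjusted p = 0.0119) were lower. For 0 of the 37 genes did facial and limb libraries separate, against 1.46% of all tested genes with facial higher and 1.12% with facial lower. None of the 5 kept its call in replicates 1 to 3 alone, where the only call was Cluap1 (0.33), or in replicates 4 to 6 alone, which made 0 calls. Those fits called 9.12% and 2.88% of all tested genes.

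Few calls were made within a region. Between dB and vB limma called 0 of the 37 genes, against 4.5% of all tested genes, and 2 had an unadjusted p under 0.05. Those were Bbs4 (-0.26, interval -0.45 to -0.07, adjusted p = 0.111), with 6.65 ± 0.83 FPKM in dB and 8.22 ± 1.60 in vB (SD, n = 6 each), and Bbs12 (0.17, interval 0.02 to 0.33, adjusted p = 0.241). Without vB replicate 4, Bbs4 passed (-0.30, adjusted p = 0.0477). The median over the 37 genes was -0.05, with 28 negative, against 0.05 over all tested genes. Markers moved in the same contrast: 4 of 8 markers of multiciliated cells were higher in dB (median 0.69), as were 4 of 8 mesenchyme markers (median 1.38), and 0 of 7 neuron markers passed in limma, all 7 with negative values (median -0.39). Their part was not tested.

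Among the prominences 2 genes were higher in FNP than in MNP, and 0 were lower, against 5.55% of all tested genes higher, 2.25% lower and 7.8% called. Bbs9, a scaffold of the BBSome, had a lowest, median and highest FPKM of 6.67, 7.40 and 8.39 in FNP, against 4.39, 5.74 and 7.36 in MNP, and a log2 fold change of 0.33 ± 0.09 (adjusted p = 0.0217). Bbs4 gave 5.93, 6.34 and 7.45 FPKM in FNP, against 4.51, 5.00 and 5.75 in MNP, with 0.29 ± 0.09 (adjusted p = 0.0474). Neither kept its call in replicates 1 to 3 or 4 to 6 alone, nor with quantile normalization or libraries scaled to the same median. Quantile normalization left 55.7% of all called genes higher in FNP, against 71.1% without it. Neuron markers differed in the same contrast, 6 of 7 being higher in FNP with a median of 2.23, and their part was not tested. FNP against MXP and MNP against MXP gave 0 calls each in limma (3 and 2 with an unadjusted p under 0.05), against 6.19% and 2.09% of all tested genes.

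Over the 15 pairs of tissues 22 of the 37 genes passed at least once, against 63.7% of all tested genes. With a fold of at least 2 as well, which is the threshold of the study, 0 passed in limma, against 21.3%. The nearest was Rabl5 for vB minus MNP (0.99 ± 0.14), which passed with a pseudocount of 0.1. A moderated F test over the 6 tissues called 19, against 51.7%. The pairs with most calls were vB minus MNP (12 higher, 2 lower, against 21.3% higher, 21.9% lower and 43.1% called) and vB minus FNP (9 higher, 5 lower, against 17.8% higher, 23.5% lower and 41.2% called).

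The genes also varied between libraries of the same tissue. For each gene the tissue mean was subtracted from log2(FPKM + 1), and the deviations were correlated over the 35 libraries. The libraries came from 5 sequencing runs, each of which held several of them, and their coverage per FPKM ran from 2.70 to 5.51. The median Pearson's r over the 666 pairs was 0.19, against 0.04 over all pairs of tested genes, and 66.4% of the pairs were positive. It was 0.36 within IFT-B1, 0.26 within IFT-A, 0.20 within the BBSome, 0.09 within IFT-B2, 0.23 between IFT-B and BBSome, 0.01 between IFT-A and IFT-B and -0.01 between IFT-A and the BBSome. The closest pair was Ift74 and Ift81 (r = 0.89, rho = 0.86), the 2 subunits that bind tubulin together. Ift74 also varied with Mkks (0.88) and Arl6 (0.86). Ift122 and Bbip1 (-0.90) and Bbs1 and Mkks (-0.86) went opposite ways.

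A few libraries stood out here. The mean deviation of the 37 genes was highest in dB replicate 4 (0.195), vB replicate 4 (0.192) and limb replicate 4 (0.172), where that of all tested genes was -0.0837, -0.241 and -0.117. Replicate 4 of FNP (-0.0172) and of MNP (0.0263) did not stand out in this way. Without vB replicate 4 the median r was 0.19 over the 666 pairs, 0.24 within IFT-B1 and 0.41 within IFT-A. Without the 5 libraries numbered 4 it was 0.11 over the 666 pairs, 0.14 within IFT-B1 and 0.43 within IFT-A. Over all pairs of tested genes the median was 0.02 in both settings. Ift74 with Ift81 (0.87) and Ift122 with Bbip1 (-0.82) kept their sign without vB replicate 4. When libraries were scaled to the same median FPKM, the median over the 666 pairs was 0.56 and within IFT-B1 0.73. Over all pairs of tested genes it was then 0.01, so the size among the 37 genes depends on the scaling.

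Genes differed in how far they followed the rest. Against the mean deviation of the other 36, r was 0.81 for Ift20, 0.77 for Dync2li1 and 0.76 for Ift74, and -0.46 for Traf3ip1, -0.58 for Ift122 and -0.68 for Bbs1. Without vB replicate 4 these were -0.27 for Traf3ip1, -0.45 for Ift122 and -0.58 for Bbs1, and with libraries scaled to the same median they were 0.00, -0.44 and -0.53, so the negative value of Traf3ip1 rests on that scaling and in part on 1 library. Over the 37 genes this r had a Pearson correlation of -0.44 with the GC content. With the log2 of the transcript length it was -0.46, and with the log2 of the coding length -0.40. Their part was not tested. Among the other tested genes, those most like the mean of the 37 were Elp2 (r = 0.91), U2surp (0.90), Cwc27 (0.89), Msh3 (0.89) and Hibch (0.89), over 35 libraries, while the median over all others was -0.17. That median was -0.10 without vB replicate 4 and turned to 0.15 with libraries scaled to the same median, and Elp2 and U2surp stayed among the nearest 5 under both, with Hibch among them only in the first.

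**Figure D3:**
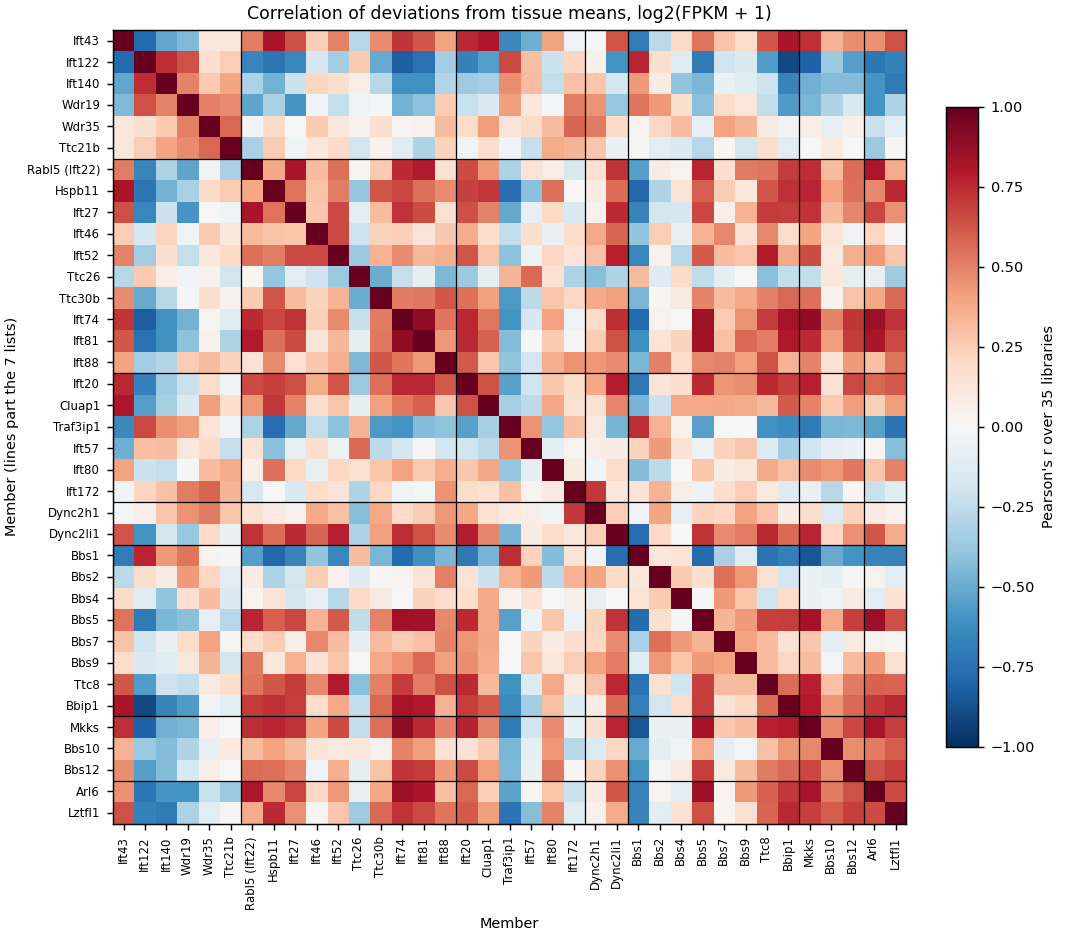
Pearson's r between the deviations of each pair of the 37 genes from their tissue means over 35 libraries, on log2(FPKM + 1), from -1 (blue) to 1 (red). Lines part the 7 lists. Ift122, Ift140, Ttc26, Traf3ip1 and Bbs1 are among the mostly blue bands, and Ift74 with Ift81 is among the darkest red cells at 0.89.

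The tables give each transcript, so the share of a transcript in the FPKM of its gene could be compared. Of the 37 genes 27 had at least 2 transcripts, and 48 of their transcripts were among the 17069 tested. For neural minus facial 6 transcripts of 4 genes (Wdr35, Bbs9, Ift20 and Arl6) were called, 12.5% of the 48, against 18.8% of all tested. For neural minus limb 5 transcripts of 3 genes were called, against 13.5%. Facial minus limb and dB minus vB gave 0 calls each in limma (0 and 4 with an unadjusted p under 0.05), against 1.45% and 0.357%.

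The largest share difference was at Wdr35, the IFT-A subunit whose total was higher by 0.11 in neural than in facial tissue. Its tissue means ran from 7.65 FPKM in MNP to 9.71 FPKM in limb. Its transcript of 4392 bases made up 34.3, 22.7, 9.62, 2.27, 12.8 and 7.35% of the FPKM of the gene in dB replicates 1 to 6 and 25.8, 34.0, 33.2, 11.3, 14.9 and 26.1% in vB. In FNP it was between 0.000502 and 8.05%, in MNP at most 0.021%, in MXP at most 0.962% and in limb at most 2.00%. All neural libraries but dB replicates 4 and 6 were above the highest facial library. The transcript itself had 0.233 to 3.00 FPKM in neural libraries and at most 0.705 FPKM in the others. The share differed by 1.17 ± 0.14 for neural minus facial and 1.31 ± 0.18 for neural minus limb on the log2 scale (adjusted p = 4.95e-08 and 1.64e-06 in limma). Against facial it was 1.61 in replicates 1 to 3 and 0.73 in replicates 4 to 6. Only the dB and vB means (1.35 and 2.13 FPKM) reached the minimum for testing, so these p-values are no independent support for a neural rise. The transcript of 4359 bases was lower in share by -0.30 against facial (adjusted p = 1.58e-06). The 2 transcripts share both ends of the locus and differ by 33 bases. The only coding exon of that size in the gene annotation (GENCODE vM21, GRCm38) is exon 11 of 28 at chr12:8995640-8995672 (plus strand), which keeps the reading frame and is in 2 of 7 annotated transcripts. Its size matches the difference between the transcripts, whose exons were not compared directly, so that it is the stretch by which they differ was not tested. It is shown for that match, with the exon in capitals between 30 bases of the neighbouring exons.
Wdr35 exon 11: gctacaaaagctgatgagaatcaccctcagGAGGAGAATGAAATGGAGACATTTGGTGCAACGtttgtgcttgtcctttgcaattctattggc

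At Bbs9 a transcript of 2782 bases, which starts later in the locus, had 9.05 to 26.2% of the FPKM in dB and 6.41 to 24.2% in vB. In FNP its share was 20.7, 5.19, 0.007, 18.6, 7.10 and 0.001% in replicates 1 to 6, and in MNP, MXP and limb it was at most 0.0108%. FNP thus overlapped the neural libraries, while the other tissues had next to none. The share differed by 0.80 ± 0.13 for neural minus facial and 1.11 ± 0.17 for neural minus limb (adjusted p = 1.54e-05 and 1.07e-05 in limma). Replicates 4 to 6 alone did not pass against facial (0.66, adjusted p = 0.0775). This transcript had 0.53 to 2.24 FPKM in neural libraries and at most 1.52 FPKM in FNP. It too reached the minimum for testing only through dB and vB, so its p-values are no independent support either. The transcript of 3382 bases was lower in share by -0.35 (adjusted p = 0.0185). At Ift20 a transcript of 573 bases made up 33.4 ± 7.1% in neural (SD, n = 12), 38.9 ± 4.2% in facial (n = 17) and 42.4 ± 2.1% in limb libraries (n = 6), a log2 share difference of -0.21 for neural minus facial (adjusted p = 0.0204). At Arl6 the transcript of 1496 bases differed by -0.02 (adjusted p = 0.0208), the other one, of 1509 bases, having at most 5.52% in any library. Srrm4, a splicing factor of neurons known for including short exons, was looked up after these values were seen and had 8.15 ± 3.43 FPKM in neural (SD, n = 12), 0.454 ± 0.573 in facial (n = 17) and 0.0741 ± 0.124 in limb libraries (n = 6). Its part in the shares was not tested.

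**Figure D4:**
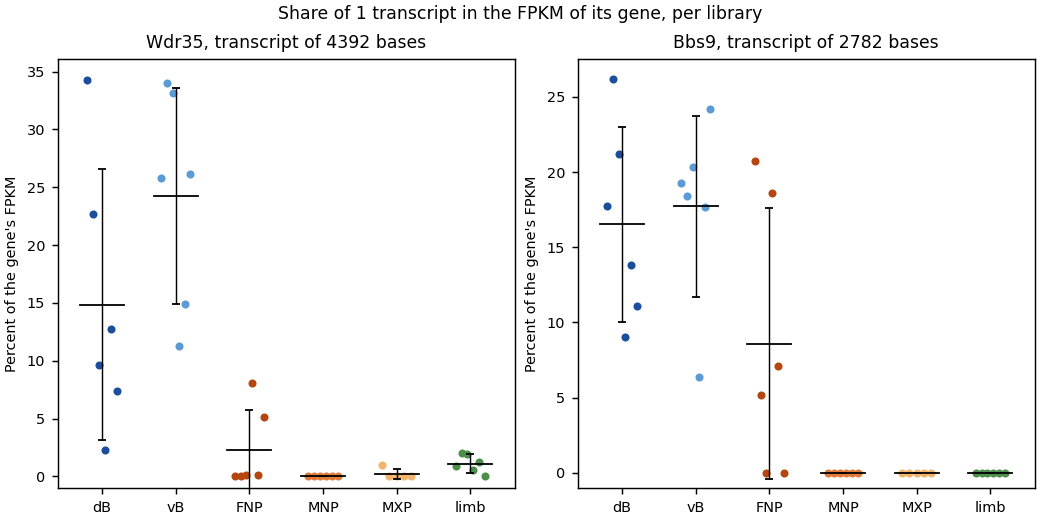
Percent of the FPKM of Wdr35 in its transcript of 4392 bases (left) and of Bbs9 in its transcript of 2782 bases (right), per library of dB, vB, FNP, MNP, MXP and limb. Points are libraries, lines means and bars 1 SD. Both shares are high in dB and vB, reach 8.05% and 20.7% in FNP and are near 0 in MNP and MXP.

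Genes that work beside the trains were taken as lists in the neural minus facial contrast, in which 26.8% of all tested genes were higher and 26.8% lower, 53.6% in all. The called shares of these lists were 75.0% for kinesin-2, 42.9% for the other IFT-B and dynein-2 genes, 66.7% for the ciliary base and IFT regulation, 55.6% for membrane proteins of the cilium and 85.7% for RFX and FOXJ1, each over few genes. Of 4 tested kinesin-2 genes 2 were higher in neural tissue and 1 was lower than in facial tissue, with Kifap3, the accessory subunit, at -0.44 and Kif3c, a motor subunit, at 0.41. Of 7 other IFT-B and dynein-2 genes 2 were higher and 1 lower (Dynlt3 0.37, Tctex1d2 0.33). Of 12 genes of the ciliary base and IFT regulation 4 were higher and 4 lower, led by the kinase Mok (0.63) and the distal appendage gene Cep164 (-0.53). Of 9 genes for membrane proteins of the cilium and their adaptors 0 were higher and 5 lower, led by Tulp3 (-0.96), the adaptor by which IFT-A carries receptors, and the channel Pkd2 (-0.90).

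The RFX and FOXJ1 list had 4 of 7 higher and 2 lower. Rfx4 differed most, with a mean of 15.3 FPKM in neural and 0.152 FPKM in facial tissue (3.76), followed by Foxj1, the regulator of motile cilia, with 3.63 and 0.412 FPKM in neural and facial tissue (1.58). All 8 markers of multiciliated cells were higher in the neural libraries, with a median of 0.76, and their mean log2(FPKM + 1) was 0.94 to 2.16 in neural, 0.54 to 1.00 in facial and 0.54 to 0.72 in limb libraries. Their part in the BBSome values was not tested.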

How the data were processed

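Paired-end RNA-seq of 35 pooled libraries was analysed. The authors deposited, per transcript, FPKM values and a coverage signal estimated with Cufflinks on mm10. Coverage per FPKM was 2.70 to 5.51, and served only to describe depth; without counts no interval of single values is given. For these tables the aligner and strandedness were not given in the sources used here. The tables list 59120 transcripts, of which 59055 could be read. FPKM was summed per symbol. The log2(FPKM + 1) values of 13934 genes that averaged 1 FPKM or more in some tissue were fitted in limma 3.58.1 (R 4.3.3, trend and robust), with 1 mean per tissue. Fold changes on this scale are smaller than FPKM ratios for low genes. Isoform shares were log2(transcript FPKM + 1) minus log2(gene FPKM + 1), over 17069 transcripts under the same minimum. Python 3.11.15 and pandas 2.3.3 served for the summaries.

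The members, lists and tests were chosen with earlier results of these data known. Values are given for the 3 genes with the largest called change in each direction of a contrast, the 3 highest and lowest in FPKM, the 3 with the largest and smallest tissue share of variance, 2 genes of each other list and the 5 genes most like the members, and the other members are summarised. In data simulated for neural minus facial over 13934 genes, the fit called 38, 48, 49 and 50 of 50 genes changed by 0.5, 1, 1.5 and 2 on the log2 scale, and 5 unchanged ones. The simulated libraries varied independently of each other and few genes changed, unlike in the real data. These counts therefore do not give the error rate in the real data. Alternatives were another pseudocount (0.1), no low filter, quantile or median scaling, transcripts under 200 bases left out, replicate number or run as a term, replicates 1 to 3 or 4 to 6 alone, and libraries left out.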

Additional observations from a re-analysis of the deposited data

Results flagged for a closer look

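Within a tissue, 1 library lay far from the rest of its group in 21 of 222 groups of values (9.46%), over 18 genes. Chance gives about 1 in 20. Values are FPKM.

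Of these, 6 lay in vB replicate 4: Hspb11 (32.0), Ift74 (41.9), Mkks (20.3) and Lztfl1 (19.9) were far above the other vB libraries, and Ttc26 (4.49) and Traf3ip1 (3.59) far below. The same library had the lowest median over tested genes. In replicate 4 of dB, Ift80 (13.0), Ttc8 (18.0) and Bbs12 (7.96) were far above, as was Ift20 (57.5) in replicate 4 of limb, Bbs1 (4.80) in replicate 4 of FNP and Ttc30b (2.19) in replicate 4 of MNP.

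In MNP replicate 3, Ift122 (5.09), Ift140 (5.80) and Bbs1 (2.67) were far below the other MNP libraries and Bbip1 (12.9) far above. In MXP, Traf3ip1 (4.44) and Dync2h1 (2.73) were far below in replicate 3 and Ift27 (18.5) in replicate 2, and Bbs12 (8.31) was far above in replicate 1. Ift172 was far below in dB replicate 3 (6.44).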

How the results depend on the processing

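No value changed sign among called results. With replicates 1 to 3 alone the called genes numbered 13 for neural minus facial (20 with all libraries), 1 for facial minus limb (5), 0 between prominences (2) and 10 in the F test (19), and 1 passed a fold of 2 in any pair (0). With replicates 4 to 6 alone they were 11 for neural minus facial, 3 for neural minus limb (13), 0 for facial minus limb, 0 between prominences, 10 in any pair (22), 4 in the F test and 2 at a fold of 2 (Rabl5 and Bbip1). Fewer libraries entered these fits. For any pair, the F test and a fold of 2, shares over all tested genes in the alternative fits are not given here. Those counts are therefore not read as results about the genes. Over all tested genes, replicates 1 to 3 alone called 49.2% for neural minus facial and 9.12% for facial minus limb. Replicates 4 to 6 alone called 33.6% for neural minus facial, 22.6% for neural minus limb and 2.88% for facial minus limb. With the run as a term neural minus limb had 21 and facial minus limb 8 (53.9% and 16.5% called over all tested genes). Without the 6 libraries numbered 1 facial minus limb had 3 (8.11% of the genes, against 10.8% of all tested genes), prominences 1 and a fold of 2 in any pair 1. Without vB replicate 4 dB minus vB had 1 (2.70% of the genes, against 8.67% of all tested genes). Without FNP replicates 4 and 5 and vB replicates 1, 4 and 5 it had 3 (8.11%, against 25.3%). Prominences then had 1, in FNP minus MNP (2.70%, against 10.5%). Between prominences quantile normalization left 0, median scaling 0 and leaving out short transcripts 1, and leaving out each MXP library gave 1 to 2. For FNP minus MNP, quantile normalization called 7.60% of all tested genes, median scaling 7.66% and leaving out short transcripts 6.34%. The fold of 2 in any pair was met by 1 gene, Rabl5, with pseudocount 0.1 and with median scaling, and by 0 to 1 when MXP libraries were left out. Median scaling left 3 for facial minus limb. For these settings the cause was not tested.

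The replicate number as a block called 24 genes for neural minus facial, 18 for neural minus limb, 8 for facial minus limb and 1 for dB minus vB, against 64.7%, 57.4%, 25.7% and 12.0% called over all tested genes in that fit. The main fit has no replicate term, because the labels do not say what a shared number marks. The number largely went with the sequencing run. All libraries numbered 1 came from 1 run, and those numbered 4 to 6 from runs that held none of those numbered 1 to 3. A shared number and a shared run therefore cannot be fully told apart. Same-number pairs of libraries varied together, with a median r of 0.34 (78 of 85 above 0.1, lowest 0.00777). For other pairs the median was -0.07 (57 of 425 above 0.1), and 32 of 35 libraries were closest to their own number. The p-values of the main fit do not take this shared part into account. Isoform calls for neural minus facial (6) were 14 with a filter of 0.1 FPKM, 3 in replicates 1 to 3 and 1 in replicates 4 to 6, and for neural minus limb (5) 3 and 1. The lower filter admits more transcripts, and the split fits hold fewer libraries. Shares called over all transcripts under these settings are not given here, so the counts are not read as results about the genes. The median r over member pairs was 0.54 with quantile normalization and 0.56 with median scaling, within IFT-B1 0.60 and 0.73 and within the BBSome 0.59 and 0.57. Over all pairs of tested genes the median was -0.001 with quantile normalization and 0.01 with median scaling. Without the 5 libraries numbered 4 the median over member pairs was 0.11, and 0.14 within IFT-B1, against 0.02 over all pairs of tested genes. That setting, like the one without vB replicate 4, was chosen after seeing the data. The X-box-like pair was in 8 promoters with at most 1 letter differing. With FPKM and no counts, the depth behind single values of low genes such as Ttc30b is unknown.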
